A study of Rattus norvegicus with 8 samples.

Results

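The transcripts described here encode the core of the Ras to ERK relay: the GTPases Hras and Nras, the kinases Braf and Araf, the MEK kinases Map2k1 and Map2k2, and the ERK kinase Mapk3. They were taken as the non-control spots of the array whose gene name equals one of these 7 symbols. Of the 7, 6 were found, on 10 probes and 19 spots, out of 35250 gene names, 41012 probes and 43379 spots in all. No spot carries the name Nras. A probe filed under the expressed sequence tag EV766865 lists an Nras mRNA among its matching transcripts. Its values are given beside those of Hras, under its own name, and it is not counted as a member.

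Ras proteins are small membrane-bound switches that are on when they hold GTP and off when they hold GDP. Active Ras recruits Raf kinases to the membrane, Raf phosphorylates the MEK kinases, and MEK phosphorylates ERK, which acts on other kinases and on transcription factors. In hippocampal neurons the relay carries signals from calcium entry and from growth factor receptors, and it is switched mainly by phosphorylation and GTP loading. The arrays measured the mRNAs of its parts, not that activity.

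RNA came from the dentate gyrus of 8 adult female Sprague-Dawley rats of 150 to 200 g, all ovariectomized and all driven into status epilepticus (SE) with 16 mg/kg of kainic acid. The COS group (4 rats) was castrated, oil-injected and seizured, and the CES group (4 rats) received 2 µg of estradiol benzoate in place of oil, 4 times at intervals of 24 h, 2 of them before SE and 2 after it. These doses are those of the sample records, which also state that pentobarbital ended SE after 5 h. The study's methods give a lower kainic acid dose, place all estradiol injections before SE and end SE with diazepam, they give the time of tissue collection in more than 1 way, and the records and methods cannot be reconciled from the files. Rats without SE were not analysed here, so the values compare estradiol with oil among seizured rats and say nothing of the effect of SE itself.

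Each of 4 arrays on a single slide carried a Cy3-labelled and a Cy5-labelled rat of the same group, with replicates 1 and 3 in Cy3 and 2 and 4 in Cy5. Dye was thus balanced between the groups, and since each array held rats of 1 group, array entered the fit as a random block only. A spot counted as valid in a rat when its foreground reached 2 times the background around it, and 70.7% to 88.9% of spots were valid in a rat. A level is the log2 of the background-subtracted signal over the median of the valid spots of that channel, averaged over the spots of a gene. The median difference of all 21372 genes tested, CES minus COS, was -0.25 on this scale, and it became 0.05 after loess and Aquantile normalization, 0.06 after quantile normalization, 0.15 when every channel was scaled to a common set of spots, those valid in all rats, and 0.12 in the deposited log2 table. For this reason the distance of each difference from that of the median gene is given too. In tissue RNA, fewer cells of a type and less RNA per cell cannot be told apart.

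The probes are 60 bases long and read different stretches of the relay's mRNAs. The 5 shown are probes on which the comparisons within Raf, MEK and ERK turn, and their positions on rn4 were read from the files. The Braf probe A_43_P16155 lies at chr4:67129009-67129068 and the Araf probe A_44_P211440 at chrX:12557667-12557726, both in descending order. The files list only 16 bases for the Araf probe A_44_P322960, at chrX:12556887-12556902. The Map2k2 probe spans chr7:10076113-10076775 and the Mapk3 probe chr1:185936330-185938511, both longer than the probe. No annotation of that build was used, so exons and untranslated regions were not assigned. No bases are singled out in capitals. Each sequence is given in the orientation in which the file writes it.
Braf A_43_P16155: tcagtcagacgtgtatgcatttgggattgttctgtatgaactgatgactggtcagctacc
Araf A_44_P211440: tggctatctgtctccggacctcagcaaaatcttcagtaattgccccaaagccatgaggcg
Araf A_44_P322960: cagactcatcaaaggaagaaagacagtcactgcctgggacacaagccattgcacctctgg
Map2k2 A_42_P653827: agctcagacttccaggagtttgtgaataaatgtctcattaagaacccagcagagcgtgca
Mapk3 A_44_P404198: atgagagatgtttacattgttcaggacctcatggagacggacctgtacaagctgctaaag
Probes of different members shared no run longer than 9 bases. The probes were compared only with one another, so binding of a probe to the mRNA of a related gene was not tested.

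None of the 6 members differed between CES and COS by limma at an adjusted p of 0.05. The members called lower numbered 0 of 6 where 28.3% of all genes were lower in CES, and those called higher 0 of 6 where 5.79% were higher, or 34.1% in either direction. At an unadjusted p under 0.05, Araf was lower and no member was higher, where 7807 of the 21372 genes were lower and 1850 higher. The methods' t-test called 0 members unadjusted, where it called 5342 genes lower and 772 higher, and after Benjamini-Hochberg adjustment over all genes it called 0 genes in all. The study itself used a correction for redundant spots of a gene and a fold-change cut-off for each gene. These were not applied here, so the counts are not those of the study's own rule. Groups overlapped for all 6, where 21.4% of all genes had groups that did not overlap, 19.8% with CES lower and 1.61% with CES higher. The differences ran from -0.47 for Araf to 0.22 for Map2k1 with a median of -0.07, which is 0.18 above the median of all genes. Hras, Braf and Map2k1 lay above that median, Araf lay below it, and Map2k2 and Mapk3 lay on it.

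**Figure D1:**
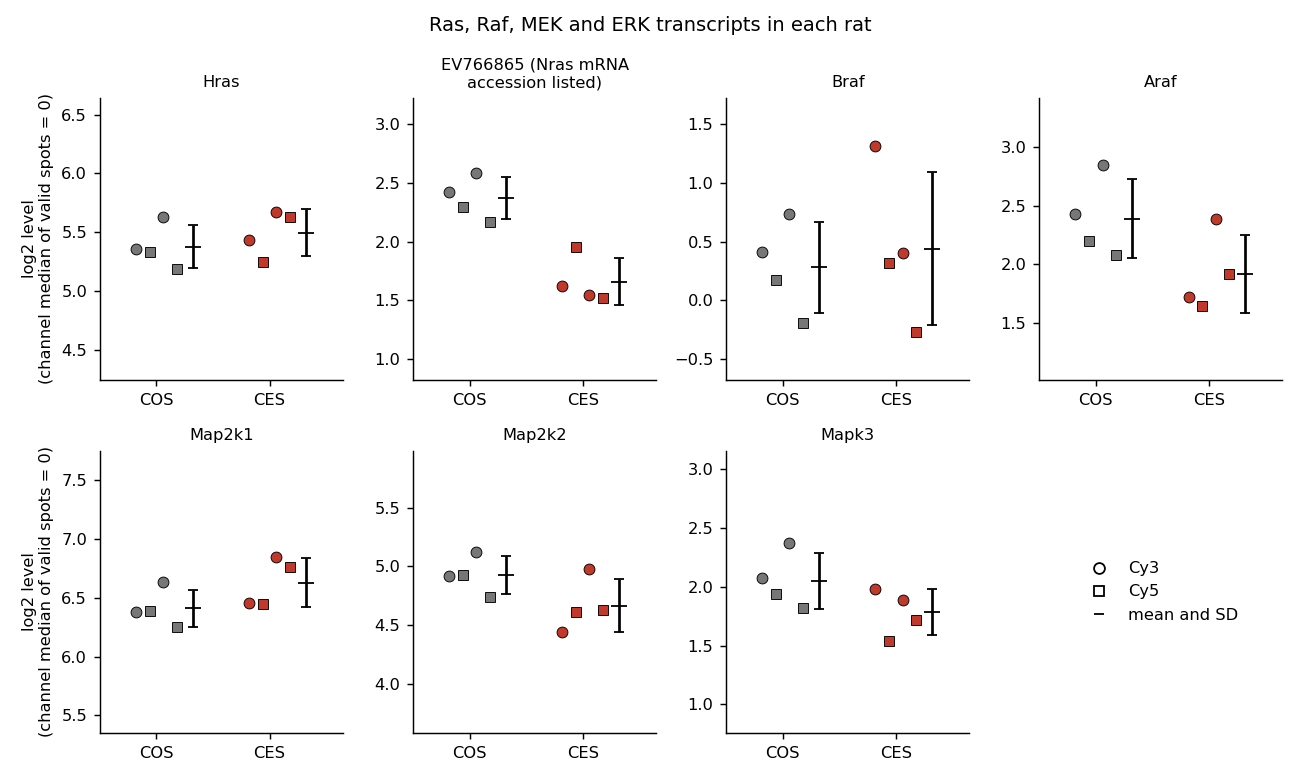
Log2 level of each transcript in each rat, with 0 at the channel's median of valid spots; circles are Cy3 rats, squares Cy5 rats, bars the mean and SD of 4 rats, and every panel spans the same range of log2 units. COS and CES overlap for the 6 members, and for EV766865 the CES rats all lie below the COS rats.

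Hras, a Ras GTPase anchored in membranes by lipid groups, was bright in every rat. Its level was 5.35, 5.33, 5.63 and 5.19 in the COS rats and 5.44, 5.24, 5.67 and 5.63 in the CES rats. The groups interleave, with the highest and the lowest rat of each within 0.1 of the other group's. The means were 5.38 ± 0.18 (SD, n = 4) and 5.50 ± 0.20 (SD, n = 4), and the difference was 0.12 (SE 0.17, 95% interval -0.25 to 0.49, limma adjusted p = 0.609). Hras lay 0.37 above the median gene, and 0.28 to 0.48 above it under each of the 22 alternatives. For any gene, scaling to the common spots and changes of test, block or dye term cannot move this distance, so they do not check it. As scaled, the Hras difference ran from 0.00595 to 0.53 under the alternatives. Hras was called higher after loess and Aquantile (0.47, adjusted p = 0.0415) and in the deposited log2 table (0.53, adjusted p = 0.0477). Its 3 probes gave differences of 0.15, 0.11 and 0.12, so they moved alike.

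EV766865, the tag that lists an Nras mRNA, lay at 2.42, 2.30, 2.59 and 2.17 in the COS rats and at 1.62, 1.95, 1.54 and 1.52 in the CES rats. Every CES rat was below every COS rat. The means were 2.37 ± 0.18 and 1.66 ± 0.20 (SD, n = 4 each), a difference of -0.71 (SE 0.17, 95% interval -1.10 to -0.32, limma adjusted p = 0.0140), or 0.611 of the COS level. The fall was -0.92 among Cy3 rats and -0.50 among Cy5 rats. It kept its direction under the 22 alternatives and was called in 12, with adjusted p from 0.00285 to 0.556. The call was lost without COS replicate 1 (adjusted p = 0.0514), COS replicate 3 (0.0856) or CES replicate 1 (0.0603). After loess and Aquantile it was -0.33 (adjusted p = 0.134). Measured from the median gene it was -0.46, and it stayed between -0.57 and -0.33 under the alternatives. Its 1 probe lies at chr2:198302149-198302208 of rn4.

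Of the Raf kinases, Braf has the strongest basal activity and is abundant in neurons. Its level was 0.41, 0.17, 0.73 and -0.19 in the COS rats and 1.31, 0.32, 0.40 and -0.27 in the CES rats. A single CES rat, replicate 1, stood above all others and the rest overlapped. The difference was 0.16 (SE 0.24, 95% interval -0.37 to 0.69, limma adjusted p = 0.632), and without CES replicate 1 it was -0.03.

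That rat's value came from 1 of the 2 Braf probes. At A_44_P992458, at chr4:67153781-67153840, the COS rats read -0.80, -0.68, -0.80 and -1.91 and the CES rats 1.55, -0.15, -0.78 and -1.96. The scanner software marked this probe as well above background in 3 of 4 rats of each group. At A_43_P16155, well above background in all 8, the COS rats read 1.06, 0.70, 1.46 and 0.57 and the CES rats 1.03, 0.67, 1.04 and 0.49. The groups overlapped at both probes, and the differences were 0.71 (SE 0.55, limma adjusted p = 0.338) and -0.14 (SE 0.16, limma adjusted p = 0.532). The direction for Braf was thus that of the dimmer probe.

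Araf, a Raf kinase with weaker basal activity, was the member with the lowest value of CES relative to COS. It read 2.43, 2.20, 2.85 and 2.08 in the COS rats and 1.73, 1.64, 2.38 and 1.92 in the CES rats. In CES, 3 rats lay below all COS rats, and replicate 3 lay among them. The means were 2.39 ± 0.34 and 1.92 ± 0.33 (SD, n = 4 each) and the difference -0.47 (SE 0.20, 95% interval -0.91 to -0.03, limma adjusted p = 0.0902). Blocking on the replicate number gave an adjusted p of 0.0496, which passed. It also passed without CES replicate 3 (-0.62, adjusted p = 0.0213), without CES replicate 4 (-0.61, adjusted p = 0.0250) and among genes well above background (adjusted p = 0.0475), and under 4 of the 22 alternatives in all. Measured from the median gene, Araf was at -0.22, and between -0.33 and -0.11 under the alternatives.

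The Araf probes differed in size of change. At A_44_P211440, which starts at base 1675 of the transcript, the COS rats read 0.69, 0.73, 0.63 and 0.26 and the CES rats -0.60, -0.08, 0.02 and -0.74, with no overlap. The difference was -0.93 (SE 0.22, limma adjusted p = 0.0109), and it was the only one of the 10 member probes called lower, where 29.0% of all probes were, with 0 called higher where 5.48% were. At A_44_P322960, which starts at base 295 and was the brighter, the groups overlapped and the difference was -0.41 (SE 0.21, limma adjusted p = 0.151). Both lie below the median of all probes, -0.27. The call at A_44_P211440 held in 11 of 21 alternatives and was lost after loess and Aquantile (-0.53, adjusted p = 0.0839). Leaving out COS replicate 3 (adjusted p = 0.0739) or CES replicate 1 (0.0545) ended it as well. The difference between these probes was not tested.

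**Figure D2:**
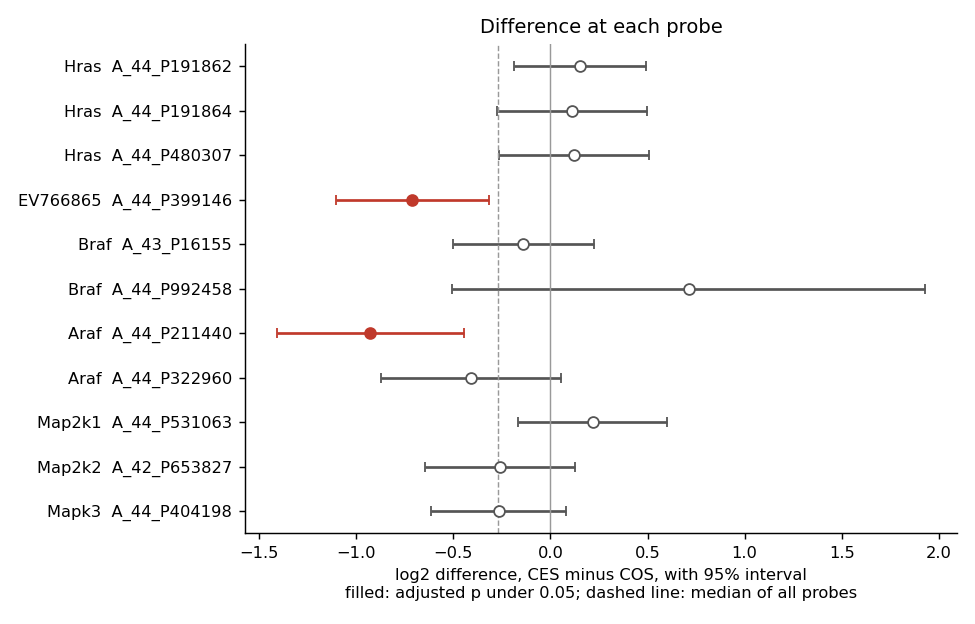
Log2 difference, CES minus COS, at each probe with its 95% interval; filled points have a limma adjusted p under 0.05, the solid line marks 0 and the dashed line the median of all probes, -0.27. Only A_44_P211440 of Araf and the EV766865 probe are filled, and A_44_P992458 of Braf has the widest interval; the probes of Map2k2 and Mapk3 and A_43_P16155 of Braf move to the right of 0 after loess or quantile scaling.

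Map2k1 and Map2k2 encode MEK1 and MEK2, which phosphorylate ERK on a threonine and a tyrosine. Map2k1 read 6.38, 6.38, 6.63 and 6.25 in the COS rats and 6.45, 6.45, 6.85 and 6.76 in the CES rats. The 2 CES rats of array 4, replicates 3 and 4, were the highest of all, and the other 2 fell within the COS range. The difference was 0.22 (SE 0.17, 95% interval -0.16 to 0.60, limma adjusted p = 0.348), with means of 6.41 ± 0.16 and 6.63 ± 0.21 (SD, n = 4 each). Map2k1 lay 0.47 above the median gene, and 0.31 to 0.54 above it under the alternatives. It was called higher in 4 of 22: loess and Aquantile (0.56, adjusted p = 0.0219), quantile (0.56, adjusted p = 0.0275), scaling to the common spots (0.62, adjusted p = 0.0313) and the deposited log2 table (0.60, adjusted p = 0.0286). With the processed signal the Map2k1 difference was 0.0184 (limma adjusted p = 0.951).

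Map2k2 read 4.91, 4.93, 5.13 and 4.74 in the COS rats and 4.44, 4.61, 4.98 and 4.63 in the CES rats. CES replicate 3 lay within the COS range and the other CES rats lay below it. The difference was -0.26 (SE 0.17, 95% interval -0.65 to 0.12, limma adjusted p = 0.263), with means of 4.93 ± 0.16 and 4.67 ± 0.22 (SD, n = 4 each). That is the difference of the median gene, to which Map2k2 stood at -0.01, and its sign turned after loess and Aquantile (0.02), after quantile normalization, on the common spots and in the deposited log2 table.

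Mapk3 encodes ERK1, and its probe was printed at 10 places on the array. Averaged over these, it read 2.08, 1.94, 2.37 and 1.82 in the COS rats and 1.98, 1.54, 1.89 and 1.72 in the CES rats. CES replicates 1 and 3 lay within the COS range and the others below it. The difference was -0.27 (SE 0.15, 95% interval -0.61 to 0.08, limma adjusted p = 0.204), again that of the median gene, from which it differed by -0.01, and its sign turned under the same 4 settings (0.12 after loess and Aquantile). The repeated spots show the error within a channel: their SD ran from 0.17 in CES replicate 4 to 0.61 in COS replicate 3, where single spots read from 1.21 to 3.63. Averaging 10 spots reduces that error for Mapk3, and the other member probes have 1 spot each.

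**Figure D3:**
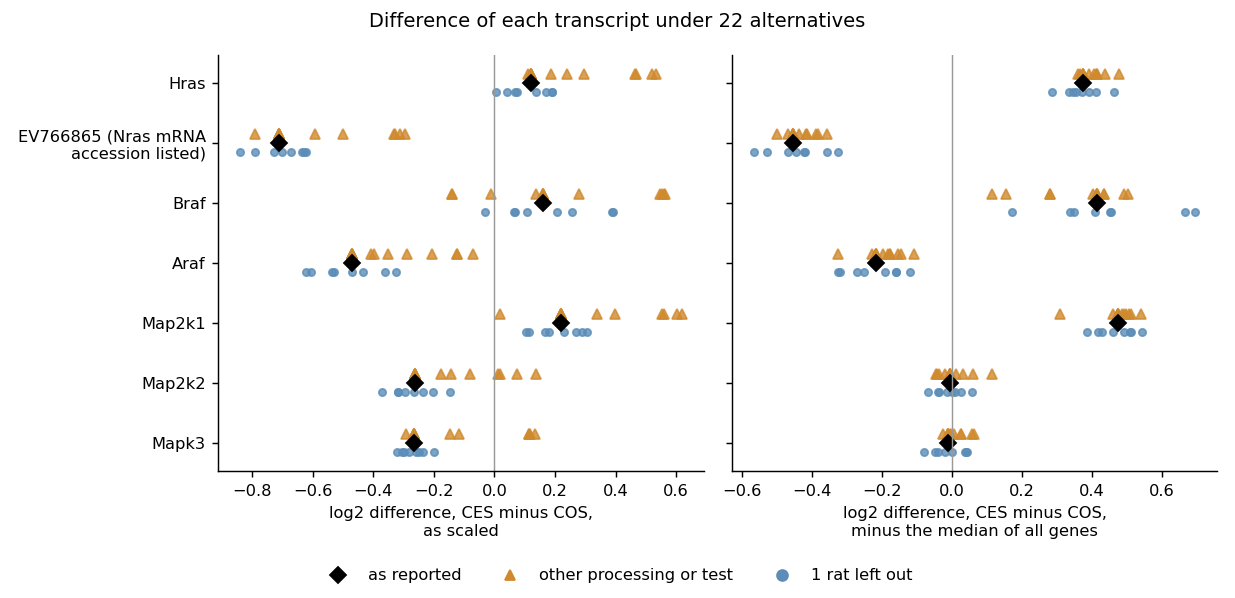
Log2 difference, CES minus COS, of each transcript as scaled (left) and after subtracting the median of all genes (right); black diamonds are the reported values, triangles the other processing settings and tests, and circles fits with 1 rat left out. On the left Braf, Map2k2 and Mapk3 fall on both sides of 0, and on the right Hras, Braf and Map2k1 stay above 0 and Araf and EV766865 below it.

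A ratio of related transcripts within a rat does not depend on how its channel was scaled, and 3 pairs were tested by exact two-sided permutation, with p adjusted over the 3. The size of such a ratio has no meaning across probes, and only its change between groups is read. With 4 rats against 4, the smallest p possible is 0.0286, and with 1 rat left out it is 0.0571, so the test cannot pass without any 1 rat.

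The log2 ratio of Map2k1 to Map2k2 was 1.46, 1.46, 1.51 and 1.51 in the COS rats and 2.01, 1.84, 1.87 and 2.13 in the CES rats. The COS rats lay within 0.1 of one another and every CES rat lay above them. The means were 1.48 ± 0.03 and 1.96 ± 0.14 (SD, n = 4 each), and the difference of 0.48 gave an exact permutation p of 0.0286, adjusted 0.0429. Pairing rats by replicate number gave 0.125, the smallest p that 4 pairs allow. With the software's processed signal the change was 0.19 (exact permutation, adjusted p = 0.129).

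The log2 ratio of Hras to EV766865 was 2.93, 3.03, 3.04 and 3.02 in the COS rats and 3.81, 3.29, 4.13 and 4.11 in the CES rats. The CES rats all exceeded the COS rats, with CES replicate 2 the nearest. The means were 3.01 ± 0.05 and 3.84 ± 0.39 (SD, n = 4 each), and the difference was 0.83 (exact permutation p = 0.0286, adjusted 0.0429; 0.125 with rats paired by replicate number). With the processed signal the change was 0.98 and the exact permutation test gave an adjusted p of 0.0857.

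The log2 ratio of Braf to Araf was -2.02, -2.03, -2.11 and -2.27 in the COS rats and -0.41, -1.33, -1.98 and -2.19 in the CES rats. The groups overlapped, and CES replicate 1, the rat with the high value at the second Braf probe, was the highest. The difference was 0.63 (exact permutation p = 0.200, adjusted 0.200).

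**Figure D4:**
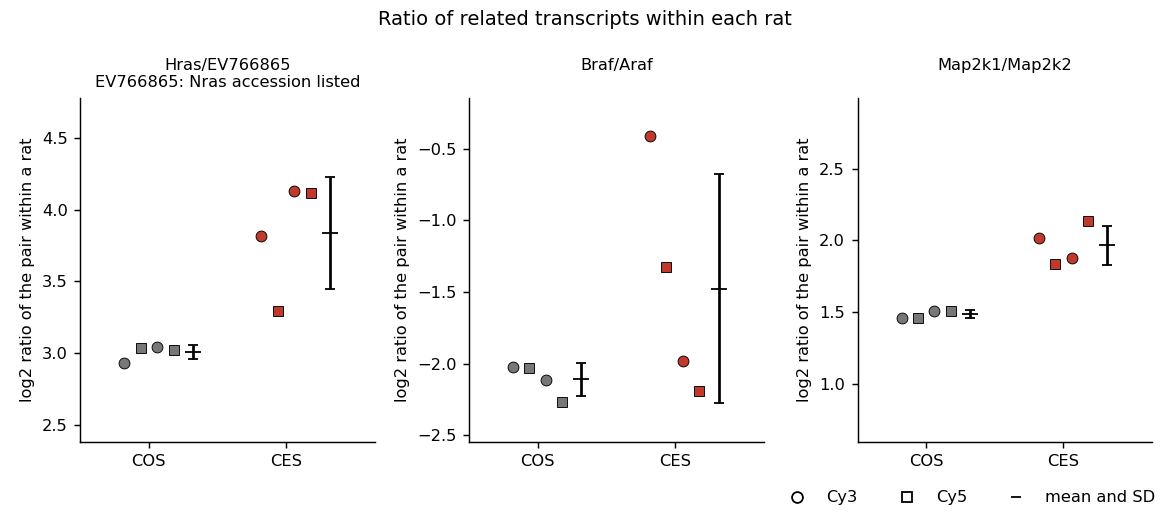
Log2 ratio of the levels of 2 related transcripts within each rat; circles are Cy3 rats, squares Cy5 rats, bars the mean and SD of 4 rats, and each panel spans the same range. For Hras over EV766865 and for Map2k1 over Map2k2 every CES rat lies above every COS rat, and for Braf over Araf the groups overlap.

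Across the 8 rats, the levels of some members followed one another. Hras and Map2k1 had a Pearson r of 0.93, and Araf had 0.94 with Map2k2 and 0.83 with Mapk3, while Map2k1 and Map2k2 had 0.22. All genes of a rat share its array, dye and scaling, so these are descriptions over 8 points. The genes with the highest r to each member over the 8 rats were DV722710 and Snrnp25 for Hras (both 0.98), Pla2g2e (0.99) and TC610653 (0.98) for Braf, and CB608258 (1.00) and Immt (0.99) for Araf. For Map2k1 they were Necap1 (0.99) and Sucla2 (0.98), for Map2k2 C19h19orf53 and Ost4 (both 0.98), and for Mapk3 Dynll2 and Washc2c (both 0.99). EV766865 was most like Rps6ka3 and BC088301 (both 1.00).

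Around the members, further genes of the pathway were listed by role, of which 99 were on the array and 95 were quantified. In CES, 31 of the 95 were lower (32.6%, against 28.3% of all genes) and 4 were higher (4.21%, against 5.79%). Their median difference was -0.33, which is -0.08 relative to all genes. After loess and Aquantile, 10 were lower and 14 higher, where the calls over all genes changed from 6054 lower and 1238 higher to 1896 and 3045. Without COS replicate 3, 7 of the 95 were lower, and without COS replicate 1, COS replicate 2 or CES replicate 1, 20, 20 and 13. Over all genes the numbers lower were 932, 3643, 3994 and 2493, in the same order. The pathway genes named singly as lower or higher kept that direction under every alternative that quantified them.

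Of the other Ras-like GTPases, 7 of 12 were lower in CES (58.3%, against 28.3% of all genes) and 1 was higher (8.33%, against 5.79%). Rras, which acts on cell adhesion, was at -0.85 (SE 0.21, limma adjusted p = 0.0157). Rheb, which activates mTOR complex 1, was at -0.77 (limma adjusted p = 0.0256), as was Rap1b, a GTPase that engages Raf kinases (limma adjusted p = 0.0159). Rit2, a GTPase of neurons, was the higher gene, at 0.91 (SE 0.21, limma adjusted p = 0.0115), with overlapping groups. After loess and Aquantile, 0 were lower and 2 higher, and 0 were lower without COS replicate 3 or CES replicate 1, 1 without COS replicate 1, 3 without COS replicate 2 and 4 without COS replicate 4. The median of the list stood below that of all genes under each alternative, by -0.20 to -0.35.

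The 10 exchange factors listed load Ras or Rap GTPases with GTP. By limma 0 of them were lower, against 28.3% of all genes (0 also at an unadjusted p under 0.05, and 0 under each of the alternatives). Of the 10, 1 was higher (10%, against 5.79% of all genes), Rasgrp4 at 0.87 (SE 0.16, limma adjusted p = 0.00571), with overlapping groups. The median difference of the 10 was 0.21, or 0.46 relative to all genes, and 0.22 to 0.56 relative to all genes under the alternatives. The number higher was 4 after loess and Aquantile, 5 on the common spots, 3 with the processed signal or without COS replicate 2, 2 without CES replicate 2, and 0 with normexp. Over all 21372 genes the number higher also rose, from 1238 to 3045 after loess and Aquantile and 3352 on the common spots. It was 1133 with the processed signal, 1079 without COS replicate 2, 1860 without CES replicate 2 and 123 with normexp. Of the proteins that switch Ras off by GTP hydrolysis, 1 of 7 was lower (14.3%, against 28.3% of all genes), Rasal2 at -0.80 (SE 0.20, limma adjusted p = 0.0140). That call was absent without COS replicate 3 or CES replicate 1, and after loess and Aquantile 0 of the 7 were lower and 1 higher.

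Of the adaptors that link receptors to Ras, 3 of 12 were lower (25%, against 28.3% of all genes). Shc1 read 2.85, 2.77, 2.96 and 2.45 in the COS rats and 0.65, 1.92, 0.96 and 0.52 in the CES rats, a difference of -1.75 (SE 0.30, limma adjusted p = 0.00456) with no overlap. Shc3, its neuronal relative, was at -1.21 (limma adjusted p = 0.0159). It was not well above background in every rat and was called in 11 of 21 alternatives. Grb2, which joins Shc to Sos, was at -0.81 (limma adjusted p = 0.0121) and was called in 14 of 22. After loess and Aquantile or without CES replicate 1, 1 adaptor was lower, and without COS replicate 3, 0. Of the Raf genes, scaffolds and regulators, 3 of 17 were lower (17.6%, against 28.3% of all genes). Among them was Iqgap1, a scaffold that binds MEK and ERK, at -1.77 (SE 0.28, limma adjusted p = 0.00410), which was not well above background in every rat. The scaffold Ksr1, which holds Raf, MEK and ERK together, was higher at 0.82 (SE 0.19, limma adjusted p = 0.0106), with overlapping groups. The split of this list turned to 2 lower and 5 higher after loess and Aquantile, where that of all 21372 genes turned to 1896 and 3045. Rit2, Rasgrp4 and Ksr1 are named because they complete the 4 higher genes, after their values were seen.

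Of the ERK genes and anchors, 3 of 7 were lower (42.9%, against 28.3% of all genes). Among them were Mapk6, the atypical kinase ERK3, at -1.01 (SE 0.17, limma adjusted p = 0.00459), and Mapk15, which was dim, at -1.28 (SE 0.21, limma adjusted p = 0.00439). The other gene called was not well above background in every rat, and its groups overlapped. Of this list 2 were lower after loess and Aquantile, 0 with normexp and 1 of 5 at a foreground of 3 times background. The count was 2 without COS replicate 2, COS replicate 3 or CES replicate 1, and 5 without CES replicate 3. Of the kinases and transcription factors downstream of ERK, 8 of 12 were lower (66.7%, against 28.3% of all genes). All 12 had negative differences, as did 14635 of all 21372 genes, and the median of the 12 was -0.83. Relative to all genes that median was -0.58, and -0.65 to -0.33 under the alternatives. The ribosomal S6 kinase Rps6ka3 (RSK2) read 1.83, 1.64, 2.32 and 1.32 in the COS rats and 0.20, 0.78, 0.11 and -0.16 in the CES rats, without overlap (-1.54, SE 0.26, limma adjusted p = 0.00437). Its relative Rps6ka6 was at -0.87, was not well above background in every rat and was called in 9 of 20 alternatives. The Ets family factors Elk4 and Ets1 were at -1.03 (limma adjusted p = 0.00526) and -0.998 (limma adjusted p = 0.00843). After loess and Aquantile 3 of these 12 were lower, and without COS replicate 3 the count was 2, with 5 without COS replicate 1, COS replicate 2 or CES replicate 1.

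The largest differences among these lists were in the parallel stress kinase branch. There 3 of 9 genes were lower (33.3%, against 28.3% of all genes) and 1 higher (11.1%, against 5.79%). After loess and Aquantile 1 was lower and 2 higher, and 1 was lower without COS replicate 2, 3 or 4 or CES replicate 1. Both Map2k3 and Map2k6 encode kinases that activate p38, and they differed between groups in opposite directions. Map2k3 read 4.64, 4.57, 4.87 and 4.14 in the COS rats and 2.08, 3.53, 2.32 and 2.05 in the CES rats (-2.06, SE 0.33, limma adjusted p = 0.00410). Map2k6 read 0.54, 0.27, 0.41 and 0.12 in the COS rats and 2.55, 1.70, 2.61 and 2.20 in the CES rats (1.93, SE 0.18, limma adjusted p = 0.00258). Neither overlapped between groups, and both kept their direction under the 22 alternatives and were called in 21, the exception being the methods' t-test. Of the genes listed under lipid processing of Ras proteins, 3 of 9 were lower (33.3%, against 28.3% of all genes). They were the protease Rce1 at -0.87 (limma adjusted p = 0.00864), the palmitoylation cofactor Golga7 at -0.72 (limma adjusted p = 0.00972) and the farnesyltransferase subunit Fnta at -0.72 (limma adjusted p = 0.0135). Of these 9, 1 was lower after loess and Aquantile, 2 without CES replicate 1, and 0 without COS replicate 3.

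**Figure D5:**
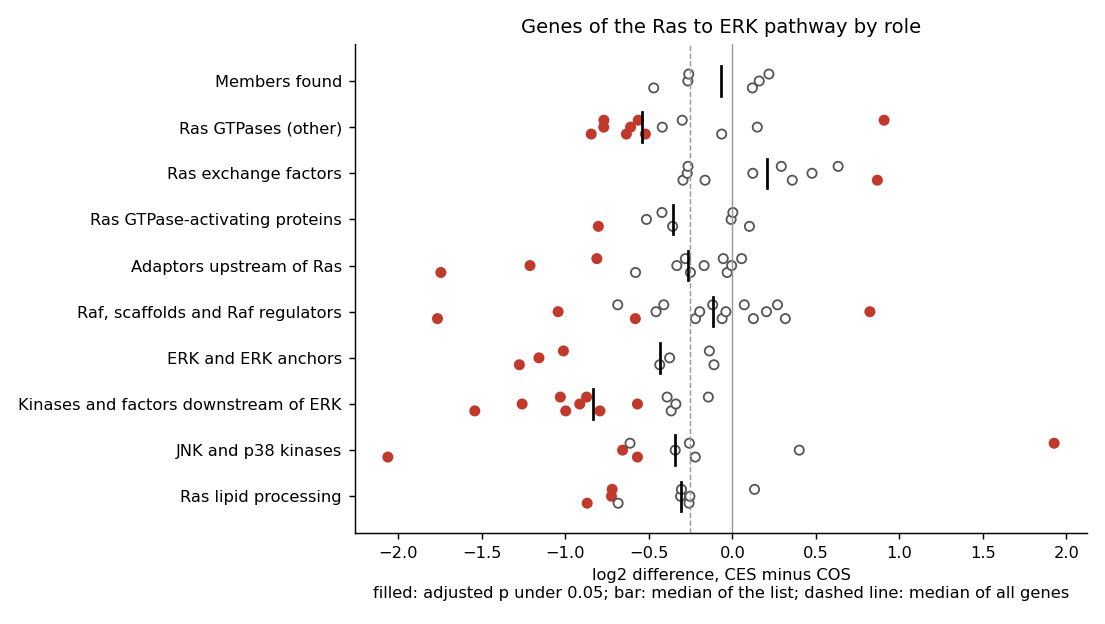
Log2 difference, CES minus COS, of each quantified gene, in rows by role, with the members found in the top row; filled points have a limma adjusted p under 0.05, bars are list medians, the solid line marks 0 and the dashed line the median of all genes, -0.25. No member is filled, the kinases and factors downstream of ERK lie to the left with 8 of 12 filled, and Map2k3 and Map2k6 are the outermost points; after loess and Aquantile the split over all lists is 10 lower and 14 higher.

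Some marker lists of the tissue and of other cells differed between the groups and others did not. The shares to set beside the counts are again 28.3% lower and 5.79% higher over all genes. Of 5 granule neuron markers 4 were quantified and 2 were well above background in all rats. The list's mean level ran from 0.85 to 1.60 in COS and from 0.27 to 0.75 in CES, with C1ql2 and Dsp lower. Calb1 at -0.28 (limma adjusted p = 0.376) and Pdzd2 at -0.06 (limma adjusted p = 0.825) were not called. General neuron markers ran from 4.19 to 4.81 in COS and from 4.35 to 5.05 in CES, with 1 of 4 called, higher. Microglia markers ran from 2.04 to 2.60 and from 1.55 to 2.06, with 2 of 5 lower and 1 higher, and endothelium markers from 0.46 to 1.18 and from -0.38 to 0.49, with 2 of 3 lower. Of the astrocyte markers 2 of 6 were higher, Gja1 at 1.27 and Aldh1l1 at 1.23. The other 4 were not called, among them Gfap at -1.19 (limma adjusted p = 0.0618), and 2 of the 6 differences were negative. Of 5 markers of CA pyramidal neurons 2 were higher and 1 lower, and of 4 of interneurons 1 was lower. By limma 0 of 6 oligodendrocyte, 0 of 5 choroid plexus and 0 of 2 blood markers were called, and 0 of them at an unadjusted p under 0.05. The 4 activity-induced genes measured, Fos, Junb, Arc and Egr1, were all lower, with list means of 4.23 to 5.46 in COS and 2.20 to 3.85 in CES. Their part in the differences of the Ras, Raf, MEK and ERK transcripts was not tested.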

How the data were processed

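The authors deposited the scanner's intensity per spot and channel with that of the surrounding background (Agilent Feature Extraction 10.7.3.1, per the file headers), and a log2 table, in which each column equals log2 of the median signal minus background less a constant. From the intensities, spots with a foreground at least 2 times background in all 8 rats (27642) were scaled to the channel median of valid spots and averaged per gene. Names came from RefSeq for the 17503 of 41012 probes with a matching accession, otherwise from the files.

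The difference of CES from COS was fitted in limma 3.58.1 (R 4.3.3, statmod 1.5.0), with dye as a fixed term and array as a random block (correlation -0.01), two-sided, with Benjamini-Hochberg adjustment over 21372 genes (25698 probes) at 0.05. Arrays lie within groups. Each rat is a sample of its own. With an array correlation of -0.01, the fit treated the rats as nearly independent, so the SE (median 0.20) reflects the spread between rats. A difference between the arrays of COS and those of CES cannot be told apart from a difference between the groups. Tested on simulated data with these samples, it found 2.86% of genes changed by 0.5 on the log2 scale, 34.3% of those changed by 1 and 95.0% of those changed by 2, with 5 false calls among 88. Far fewer genes were changed there than the 7292 called in the data, and the adjustment is stricter when few genes change. These rates are thus not the sensitivity of the comparison reported here. Deviations of same-numbered rats correlated at 0.32, 0.21, 0.29 and 0.34, so blocked values stand beside the results they change. Rats of the same dye and another number correlated as highly (0.44, 0.31, 0.21 and 0.36), so the correlation follows dye and does not show that the numbers pair the rats. The Hras and Nras pair was run with EV766865, since no spot is named Nras.

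The genes named are the members, up to 20 listed genes with an adjusted p under 0.05, non-overlapping groups and the largest difference relative to all genes (at most 4 a list), and for each member the 2 genes with the highest r. Members and lists were chosen with earlier results of these data known. Alternatives changed background correction, signal, normalization, filters, probe summary, test, blocks and rats. Distances from the median gene cannot change with the test, the blocks, the dye term or scaling to the common spots. Figures used matplotlib 3.10.9. Some genes and a probe sequence covered by these rules are not reported here.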

Additional observations from a re-analysis of the deposited data

Results flagged for a closer look

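In the COS group, replicate 4 stood apart at the Braf probe A_44_P992458, at -1.91 where the other COS rats read -0.80, -0.68 and -0.80. The gap to its nearest neighbour was 0.903 of the group's range, above the critical value of 0.829 for 4 samples. It was 1 of 36 groups of members and probes examined, and chance gives about 1 in 20. CES replicate 4, with the same dye, read -1.96 there.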

How the results depend on the processing

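Over 22 alternatives, the differences of Hras and Map2k1 stayed above 0 and those of Araf and EV766865 below it, with calls that varied. Some were close to 0. Hras ran from 0.00595 to 0.53 (limma adjusted p up to 0.979). Map2k1 ran from 0.0184, with the processed signal (limma adjusted p = 0.951), to 0.62. Araf ran from -0.62 to -0.0713. Braf turned with the processed signal (-0.0104), among spots well above background (-0.14), with the brightest probe (-0.14) and without CES replicate 1 (-0.0325). Loess with Aquantile, quantile, scaling over common spots and the deposited log2 table moved the median of all genes upward. Under them, in that order, Map2k2 became 0.0172, 0.0133, 0.14 and 0.0761, Mapk3 0.12, 0.12, 0.13 and 0.11, the Braf probe A_43_P16155 0.27, 0.26, 0.26 and 0.24, Map2k1 0.56, 0.56, 0.62 and 0.60 (all called), and EV766865 -0.33, -0.33, -0.31 and -0.30 (none called). The Map2k2 probe A_42_P653827 and the Mapk3 probe A_44_P404198 gave the values of their genes. Hras was called with loess and Aquantile (0.47) and in the deposited table (0.53), so 2, 1, 1 and 2 members were called higher. Pathway genes called lower fell from 31 to 10, 12, 10 and 12, and those called higher rose from 4 to 14, 14, 15 and 14. Over all genes, those called lower fell from 6054 to 1896, 2232, 1720 and 1936. Those called higher rose from 1238 to 3045, 3066, 3352 and 3285. The genes tested numbered 21372, and 21047 in the deposited table.

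EV766865 also lost its call with normexp (-0.50), without a filter (-0.71) and by the methods' t-test (-0.71). Pathway calls were 2 lower and 1 higher with normexp, where 454 and 123 of all 21372 genes were. Without a filter they were 11 and 2, where 2711 and 404 of 35250 genes were. At a foreground of 3 times background 15 were lower, as were 2835 of 16793 genes. By the methods' t-test they were 0 and 0. Over all genes that test called 0 after adjustment over all genes, and 5342 lower and 772 higher at an unadjusted p under 0.05.

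With the replicate number as a block, Araf (-0.47) was called, giving 1 member lower, as among spots well above background (-0.47, 1 member), and the ratio changes of Hras to EV766865 (0.83) and Map2k1 to Map2k2 (0.48) had an adjusted p of 0.125, the smallest that 4 pairs allow. The block ended or made no other call among the members. Over all genes, 6644 of 21372 were lower with the block and 5384 of 13708 among spots well above background. Permutation within dye gave both ratio changes (0.83 and 0.48) an adjusted p of 0.0833, but it cannot pass, since its smallest p is 0.0556, and the processed signal gave 0.98 (adjusted p = 0.0857) and 0.19 (adjusted p = 0.129).

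Leaving out 1 rat at a time, EV766865 ran from -0.84 to -0.62 and lost its call without COS replicate 1 (adjusted p = 0.0514), COS replicate 3 (0.0856) or CES replicate 1 (0.0603), and Araf ran from -0.62 to -0.32 and was called without CES replicate 3 or 4. Members called lower ran from 0 to 1. Pathway genes called lower ran from 7 to 36, with 20 without COS replicate 1, 20 without COS replicate 2, 7 without COS replicate 3 and 13 without CES replicate 1. Over all genes, those called lower ran down to 932 without COS replicate 3. Braf ran from -0.0325 to 0.39, and the Hras probe A_44_P191864 turned to -0.0195 without CES replicate 4. The ratio changes ran from 0.73 to 1.01 for Hras to EV766865, from 0.42 to 0.52 for Map2k1 to Map2k2 and from 0.28 to 0.87 for Braf to Araf.

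The cause of these changes was not tested. A difference of about 0.5 on the log2 scale was rarely recovered on simulated data, where far fewer genes changed than were called here. That rate is not the sensitivity of this comparison. Missed calls among the members do not show equal levels.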
